A study of Mus musculus with 6 samples.

Results

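The leukocyte β2 integrins and the intracellular proteins that switch them on were followed in alveolar macrophages of the mouse, phagocytes that live in the airspace of the lung. The members are 7 gene symbols: the α chains Itgal, Itgam, Itgax and Itgad, the β chain Itgb2, and the activators Fermt3 and Tln1. They were chosen by name, and 8 of the 10539 rows of the deposited table carry one of the 7 symbols, because Itgam stands on 2 rows. All 8 passed the filter for testing, a mean of at least 1 FPKM (fragments scaled to gene length and to the mapped fragments of the library). The cells were from strain C57BL/6 and overexpressed the transcription factor C/EBPβ in both groups. The 3 libraries called CEBPb hold these cells as such. The 3 called CEBPb-A hold cells that were also treated with an A20 adenovirus, A20 being the ubiquitin-editing brake on NF-κB signalling. The cells received virus after isolation, per the labels. The sources used here do not give the virus used on the CEBPb cells, the means of C/EBPβ overexpression or the age of the mice, and cells without C/EBPβ overexpression were not analysed here. The labels do not say that replicates are separate animals or cultures, so p-values reflect library-to-library spread alone, possibly a technical one.

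A β2 integrin is a pair of one α chain and the shared β2 chain, CD18, encoded by Itgb2. The 4 pairs are LFA-1 (with CD11a, from Itgal), Mac-1 or complement receptor CR3 (with CD11b, from Itgam), p150,95 or CR4 (with CD11c, from Itgax) and the receptor with CD11d, from Itgad. They hold leukocytes to ICAM proteins on other cells, and Mac-1 and p150,95 also bind targets coated with the complement fragment iC3b. The resting receptor is bent and binds weakly. Talin-1 (Tln1) and kindlin-3 (Fermt3) attach to the cytoplasmic tail of the β chain and help the bent receptor to extend. Loss of ITGB2 or of FERMT3 causes leukocyte adhesion deficiency in humans. Mouse alveolar macrophages are known for high CD11c and low CD11b on their surface, unlike most other tissue macrophages.

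The labelled cell type was matched by its markers, since 10 of 10 alveolar macrophage genes were listed, led by Lyz2 at 19554 to 29717 FPKM, Chil3 at 4399 to 5472 and Ear2 at 671 to 1008. Siglecf, a surface marker singled out with its values known, ran from 101 to 106 FPKM. Of the markers of T and NK cells 0 of 10 and of B cells 0 of 8 were among the rows analysed here, and those of monocytes and dendritic cells summed to 1.35 to 1.99 FPKM (3 of 10, Cx3cr1, Ly6c2 and Clec9a). Whether a missing row means that a gene was silent was not tested. Of 10 markers of lung epithelium and stroma 3 had a row (Scgb1a1, Ager and Krt8), with a sum of 23.9 to 35.2 FPKM in CEBPb and 28.1 to 61.7 in CEBPb-A. The gene of A20, Tnfaip3, ran from 7.32 to 15.5 FPKM in CEBPb-A and from 8.76 to 19.2 in CEBPb, so its transcript does not show the delivery named in the labels, and directions here are between libraries as labelled. Cebpb ran from 363 to 500.02 FPKM over all 6. CEBPb-A replicate 3 stood apart on the first principal component (score 25.7, the other 5 between −11.7 and −0.095, 44.3% of the variance), and values without it are given below. Fold changes in the whole table also followed length (Spearman −0.54 across 9600 genes, −0.33 without that library; genes are not independent replicates). By the longest coding transcript, the median log2 fold change was 0.10 under 2000 bases, 0.0092 from 2000 to 3500, −0.069 from 3500 to 6000 and −0.18 from 6000 upward. Depth is unknown, since FPKM values of low genes showed no clear whole-read steps.

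The shared β chain and CD11c dominated, and no member passed the test between groups. Itgb2 and Itgax lay above 99.6% and 99.5% of listed genes by mean FPKM. Over the 6 libraries Itgb2 ran from 631 to 693 FPKM, Itgax from 451 to 517, Itgal from 112 to 145 and Fermt3 from 98.7 to 118. The 2 Itgam rows together ran from 47.2 to 73.1 FPKM, Tln1 from 47.4 to 66.5 and Itgad from 0 to 3.86. In this order of per-length levels, Itgal and Fermt3 overlapped, as did the summed Itgam rows and Tln1, while the other neighbours were separate. Of the 8 rows, 0 had a limma adjusted p under 0.05, as did 5 of 9617 genes tested (0.052%), and 1 had an unadjusted p under 0.05, against 8.18% of all genes. The groups did not overlap for 1 row, Itgax, against 16.8% of all genes. The log2 fold change (of FPKM + 1, CEBPb-A minus CEBPb) was negative for 5 rows and positive for 3. Its median was −0.063, beside −0.013 over all genes, of which 53.4% were negative. By length, the α chain rows fall in the class with a median of −0.069. Tln1 falls in that with −0.18, and Itgb2 and Fermt3 in that with 0.0092. In bulk RNA, fewer cells with a transcript and less transcript per cell cannot be told apart.

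**Figure D1:**
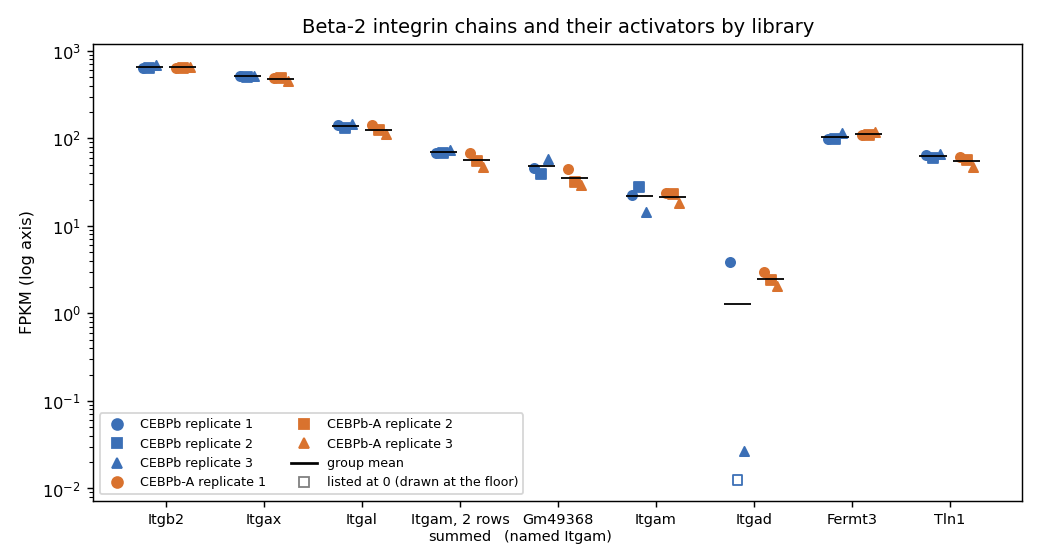
FPKM on a log axis for each member in each library; colours mark the groups, symbols the replicates and black bars the group means, and an open symbol marks a value listed at 0. Itgb2 (631 to 693 FPKM) and Itgax (451 to 517) stand highest in all 6 libraries, and only Itgad has libraries near 0 (0 and 0.0269 FPKM in CEBPb replicates 2 and 3).

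Itgb2 (ENSMUSG00000000290.13, GRCm38 chromosome 10, 77530252 to 77565708, plus strand), without whose product no β2 integrin reaches the surface, was the steadiest member. It stood at 631, 635 and 693 FPKM in CEBPb replicates 1, 2 and 3 and at 636, 638 and 661 in CEBPb-A replicates 1, 2 and 3. The other 5 libraries lay between 631 and 661 FPKM and the highest was CEBPb replicate 3, so the groups overlapped. The means were 645 ± 13.5 FPKM in CEBPb-A and 653 ± 34.8 in CEBPb (SD, n = 3 each), and the log2 fold change was −0.017, with an SE of 0.078 and a 95% interval from −0.20 to 0.17 (limma adjusted p = 0.946). Its sign turned to 0.027 without CEBPb replicate 3 and to 0.0038 after median-of-ratios scaling, and it was −0.16 after quantile normalization. The chain of the other large integrin family, Itgb1, had a lower level, at 110 to 141 FPKM.

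Itgax (ENSMUSG00000030789.9, chromosome 7, 128129547 to 128150657, plus strand), the α chain CD11c, was the most abundant α chain in every library. Its level was 517, 506 and 515 FPKM in CEBPb replicates 1, 2 and 3 and 487, 489 and 451 in CEBPb-A replicates 1, 2 and 3. All 3 CEBPb-A libraries lay below all 3 of CEBPb, and CEBPb-A replicate 3 was lowest. The means were 476 ± 21.5 and 512 ± 6.06 FPKM (SD, n = 3 each), a difference of −7.18% for CEBPb-A against CEBPb. The difference did not pass (log2 fold change −0.11, SE 0.074, 95% interval −0.28 to 0.064, limma adjusted p = 0.616). The exact two-sided permutation test gave p = 0.1, the smallest that 3 against 3 allows. The log2 fold change was −0.070 without CEBPb-A replicate 3 and −0.055 with the length trend removed, each over 1.5 times smaller in size, and −0.24 after quantile normalization.

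Itgal (ENSMUSG00000030830.18, chromosome 7, 127296260 to 127335138, plus strand), the α chain of LFA-1 that binds ICAM-1, came second among α chains. It stood at 142, 132 and 145 FPKM in CEBPb replicates 1, 2 and 3 and at 141, 125 and 112 in CEBPb-A replicates 1, 2 and 3. The first CEBPb-A library lay inside the CEBPb range and the other two lay below it. The means were 126 ± 14.6 and 140 ± 7.03 FPKM (SD, n = 3 each), with a log2 fold change of −0.15 (SE 0.098, 95% interval −0.38 to 0.073, limma adjusted p = 0.605). It was −0.074 without CEBPb-A replicate 3, −0.24 without CEBPb-A replicate 1, −0.23 after quantile normalization and −0.052 with the length trend removed.

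The Itgam symbol hid a pair of overlapping genes. One row (ENSMUSG00000030786.18, chromosome 7, 128062640 to 128118491, plus strand) is Itgam proper, the α chain of Mac-1. The other (ENSMUSG00000108596.1, 128062683 to 128128160) is named Gm49368 in GENCODE M21, which tags its transcripts as readthrough. Its long transcript has 30 exons, of which 29 have the same ends as Itgam exons, and 71.8% of its 4803 bases lie in Itgam exons. Its last exon (128126808 to 128128160) lies past the end of Itgam and stops 1386 bases before Itgax starts, with no base in an Itgax exon. The coding sequence of Itgam holds GFFKR, the motif that all 4 α chains carry where the tail leaves the membrane, once, and so do Itgax, Itgal and Itgad, but that of Gm49368 holds it 0 times. The junctions into the last exon show where they part. Both lines start with the last 30 bases of the shared exon (128116736 to 128116846) in lower case and go on with the first 30 coding bases of the last exon in capitals. They are from GENCODE M21 transcripts on GRCm38, and the Itgam last exon runs from 128117306 to 128118490.
Itgam: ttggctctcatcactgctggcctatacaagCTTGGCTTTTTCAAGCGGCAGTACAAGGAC
Gm49368: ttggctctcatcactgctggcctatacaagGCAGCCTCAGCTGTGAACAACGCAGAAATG
Apart from fragments at the first bases, where Itgam starts earlier, only those that reach the last exon or the junction tell these transcripts apart. The sources used here do not say how the authors counted the rest, so each row's level is uncertain. Their sum avoids that division only if no shared fragment was dropped or counted at both rows, which is not known.

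Most of the Itgam signal was assigned to the readthrough row. Itgam itself stood at 22.7, 28.1 and 14.6 FPKM in CEBPb replicates 1, 2 and 3 and at 23.6, 23.1 and 18.1 in CEBPb-A replicates 1, 2 and 3. Gm49368 stood at 46.2, 39.4 and 58.5 FPKM in CEBPb replicates 1, 2 and 3 and at 44.2, 31.6 and 29.1 in CEBPb-A replicates 1, 2 and 3. Both rows overlapped between the groups. Within CEBPb the library highest for one row was lowest for the other. Within CEBPb-A both rows were highest in replicate 1 and lowest in replicate 3. The readthrough row took 57.8% to 80.1% of the summed level. Over all libraries the sum was steadier than either row. It stood at 68.9, 67.5 and 73.1 FPKM in CEBPb replicates 1, 2 and 3 and 67.8, 54.7 and 47.2 in CEBPb-A replicates 1, 2 and 3. CEBPb-A replicate 1 lay inside the CEBPb range and the other two lay below it. The means of the sum were 56.6 ± 10.4 and 69.8 ± 2.92 FPKM (SD, n = 3 each), a difference of −19.0%. When the sum replaced both rows, a choice made after seeing the data, the log2 fold change was −0.31 (SE 0.13, 95% interval −0.61 to −0.020, unadjusted p = 0.0392, limma adjusted p = 0.587). It was −0.19 without CEBPb-A replicate 3. Kept apart, Itgam had a log2 fold change of 0.027 (SE 0.22, adjusted p = 0.967) and Gm49368 −0.45 (SE 0.19, unadjusted p = 0.0423, adjusted p = 0.588). The sign for Itgam turned to −0.22 without CEBPb replicate 3, to −0.037 without CEBPb-A replicate 1 and to −0.024 without CEBPb-A replicate 2.

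**Figure D2:**
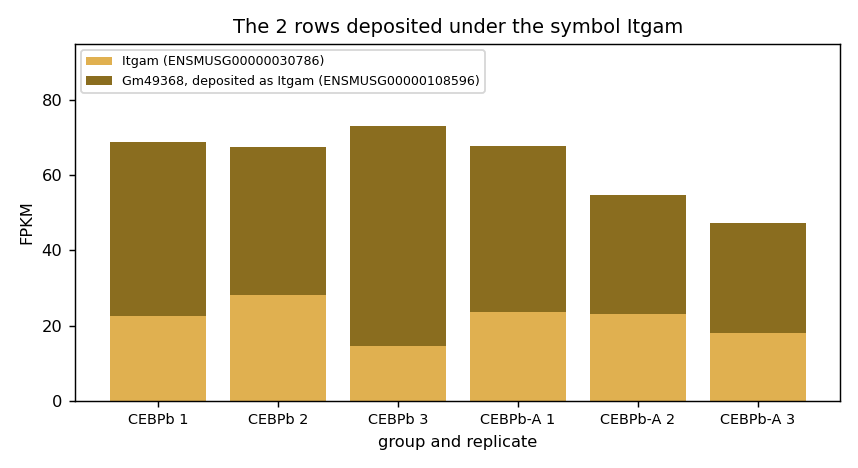
FPKM of the 2 rows deposited as Itgam, stacked for each of the 6 libraries (horizontal axis, group and replicate). The readthrough row takes 57.8% to 80.1% of each bar, and bar heights run from 47.2 to 73.1 FPKM.

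Mac-1 and LFA-1 are also abundant on neutrophils, of whose 10 markers 4 had a row, S100a8, Cxcr2, Camp and Ltf (the last outside the rule for named genes). Only S100a8, which macrophages can also express, separated the groups, as did 16.8% of all genes tested. In CEBPb replicates 1, 2 and 3 it stood at 251, 249 and 199 FPKM. In CEBPb-A replicates 1, 2 and 3 it stood at 303, 296 and 286. The more specific markers overlapped between the groups. Cxcr2 ran from 2.98 to 3.46 FPKM in CEBPb and from 2.96 to 3.83 in CEBPb-A, Camp from 1.41 to 2.17 and from 1.70 to 2.35, and Ltf from 0.958 to 1.67 and from 1.17 to 3.77. The sum of the 4, nearly all of it S100a8, was 206 to 257 FPKM in CEBPb and 294 to 310 in CEBPb-A. Ly6g, Mpo, Elane, Ngp, Retnlg and S100a9 had no row among the 10539 analysed here, so their levels are unknown. The part of neutrophils in the levels of Itgal and Itgam was not tested.

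Itgad (ENSMUSG00000070369.13, chromosome 7, 128154376 to 128223816, plus strand), the α chain CD11d, was the one member near the lower limit, and 2 CEBPb libraries set its pattern. It stood at 3.86, 0 and 0.0269 FPKM in CEBPb replicates 1, 2 and 3 and at 2.96, 2.42 and 2.08 in CEBPb-A replicates 1, 2 and 3. The highest and the lowest libraries thus both belonged to CEBPb, and the 3 of CEBPb-A lay between them. A value of 0 may be a failed estimate in such a table, in which 12 to 27 genes per library are listed at 0. The difference did not pass (limma log2 fold change 1.02, SE 0.56, adjusted p = 0.590; exact permutation p = 0.4). With values at and near 0 the fold change depended on the pseudocount, at 1.502 with 0.5 and 2.80 with 0.1 in place of 1, and neither passed. Leaving out CEBPb replicate 1 gave 1.78 with an adjusted p of 0.0182 by limma, a call that rests on the pair of libraries near 0. Itgad lies next to Itgax, and of the 3935 stretches of 31 bases in its main coding transcript 512 (13.0%) also occur in that of Itgax, whereas 0 occur in those of Itgam and Itgal. Its level was 0% to 0.746% of that of Itgax. Whether Itgax fragments were counted at Itgad was not tested.

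Within each library, CD11c made up most of the α chain transcript. The summed level of the 4 α chains was 732, 705 and 734 FPKM in CEBPb replicates 1, 2 and 3 and 700, 671 and 612 in CEBPb-A replicates 1, 2 and 3. All 3 CEBPb-A libraries lay below those of CEBPb (exact permutation p = 0.1, the smallest possible). Most of this sum is Itgax, whose groups also did not overlap, as was so for 16.8% of all genes. Itgax supplied 69.7% to 73.6% of the sum, Itgal 18.3% to 20.2%, the Itgam rows 7.71% to 9.96% and Itgad 0% to 0.527%. Itgax was thus 3.45 to 4.02 times as abundant per length as Itgal and 7.05 to 9.54 times as abundant as the Itgam rows. The sum counts Gm49368 with Itgam, and Gm49368 took 57.8% to 80.1% of those rows. Without Gm49368 the share of Itgam would be smaller and those of Itgax and Itgal larger. Itgb2 per summed α chain was 0.863, 0.901 and 0.945 in CEBPb replicates 1, 2 and 3 and 0.910, 0.952 and 1.08 in CEBPb-A replicates 1, 2 and 3. With both Itgam rows counted, the α chains summed to more than the β chain in each library but CEBPb-A replicate 3. Without Gm49368 they also summed to less in CEBPb replicate 3. The groups overlapped in the ratio. The ratio had means of 0.980 ± 0.0881 in CEBPb-A and 0.903 ± 0.0410 in CEBPb (SD, n = 3 each; exact permutation p = 0.2), and the difference of 0.077 shrank to 0.028 without CEBPb-A replicate 3. The share of Itgax was 72.1% ± 2.09 against 70.8% ± 0.770 (exact permutation p = 0.4, n = 3 each). That of Itgal was 19.0% ± 1.01 against 19.3% ± 0.556 (exact p = 0.7), and that of the Itgam rows 8.52% ± 1.04 against 9.65% ± 0.280 (exact p = 0.3). The longest coding transcript has 2970 bases for Itgb2 and 4046 to 5222 for the α chains, which fall in length classes whose median fold changes differed, as given above.

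**Figure D3:**
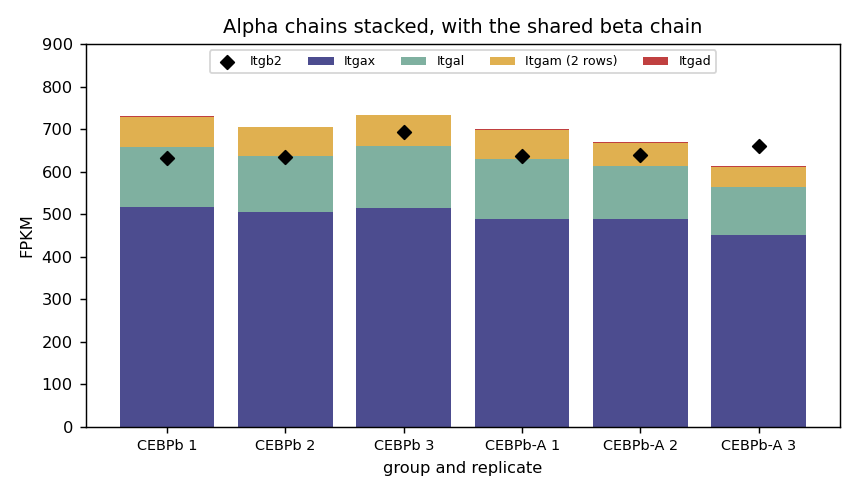
FPKM of the α chains stacked for each library (horizontal axis, group and replicate), with Itgb2 as black diamonds. Itgax fills 69.7% to 73.6% of each bar. With both Itgam rows in the bar, the diamond lies above it only in CEBPb-A replicate 3.

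The promoters of Itgam and Itgax are shown because the genes are neighbours, their levels differed, and C/EBPβ was overexpressed in all 6 libraries. Itgax was 7.05 to 9.54 times as abundant per length as the summed Itgam rows, which include Gm49368. The RefSeq table of promoters (GRCm38.p6) matched 4 of the 7 members, Itgam, Itgax, Fermt3 and Tln1. Each window holds 250 bases before and 50 from the transcription start, and positions count from 0 at the start. Capitals mark matches on either strand to TTNNGNAA, a loose form of the C/EBP site, and to GAGGAA, a core bound by PU.1 and other ETS factors. Itgam is at chr7:128062390-128062689 and Itgax at chr7:128129300-128129599, both on the plus strand.
Itgam: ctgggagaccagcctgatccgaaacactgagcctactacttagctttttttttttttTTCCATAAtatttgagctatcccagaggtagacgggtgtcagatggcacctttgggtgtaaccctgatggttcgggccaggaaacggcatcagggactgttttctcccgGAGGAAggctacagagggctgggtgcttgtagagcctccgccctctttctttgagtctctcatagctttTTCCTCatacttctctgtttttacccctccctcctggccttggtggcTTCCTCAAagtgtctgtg
Itgax: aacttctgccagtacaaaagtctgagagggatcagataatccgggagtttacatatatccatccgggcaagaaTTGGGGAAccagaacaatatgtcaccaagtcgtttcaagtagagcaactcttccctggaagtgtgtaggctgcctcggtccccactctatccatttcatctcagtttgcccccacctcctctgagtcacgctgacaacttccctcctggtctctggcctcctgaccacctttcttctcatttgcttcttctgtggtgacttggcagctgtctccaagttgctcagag
The Itgam window held 2 matches to TTNNGNAA, at −193 and 32, and 3 to GAGGAA, at −84, −15 and 32, of which the last lies inside the C/EBP match at the same place. The Itgax window held 1 match to TTNNGNAA, at −177, and 0 to GAGGAA. Fermt3 held 0 of either, and Tln1 0 and 1. TTNNGNAA occurred in 40.7% of all 32851 promoters of that set and GAGGAA in 28.3%, and in 32.2% and 27.2% of the 10521 promoters of listed genes, so such matches are common, and none of them is shown to be a bound site.

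Of the activators, kindlin-3 had a higher and talin-1 a lower mean in CEBPb-A, neither past the test. Fermt3 (ENSMUSG00000024965.8, chromosome 19, 6998958 to 7019469, minus strand) stood at 99.0, 98.7 and 116 FPKM in CEBPb replicates 1, 2 and 3 and at 109, 108 and 118 in CEBPb-A replicates 1, 2 and 3. Replicate 3 was the highest in each group, and the groups overlapped. The means were 112 ± 5.29 and 105 ± 10.004 FPKM (SD, n = 3 each), with a log2 fold change of 0.099 (SE 0.087, 95% interval −0.10 to 0.30, limma adjusted p = 0.688). It was 0.060 without CEBPb-A replicate 3, 0.061 and 0.059 without CEBPb replicates 1 and 2, and 0.18 without CEBPb replicate 3.

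Tln1 (ENSMUSG00000028465.16, chromosome 4, 43531519 to 43562691, minus strand) stood at 63.8, 59.2 and 66.5 FPKM in CEBPb replicates 1, 2 and 3 and at 62.03, 56.8 and 47.4 in CEBPb-A replicates 1, 2 and 3. CEBPb-A replicate 3 was lowest and replicate 1 lay inside the CEBPb range. The means were 55.4 ± 7.42 and 63.2 ± 3.72 FPKM (SD, n = 3 each), with a log2 fold change of −0.19 (SE 0.11, 95% interval −0.44 to 0.057, limma adjusted p = 0.591). Its longest coding transcript has 8393 bases, and the median of the class from 6000 bases upward was −0.18. With the length trend removed the value was −0.0098, and without CEBPb-A replicate 3 it was −0.087.

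**Figure D4:**
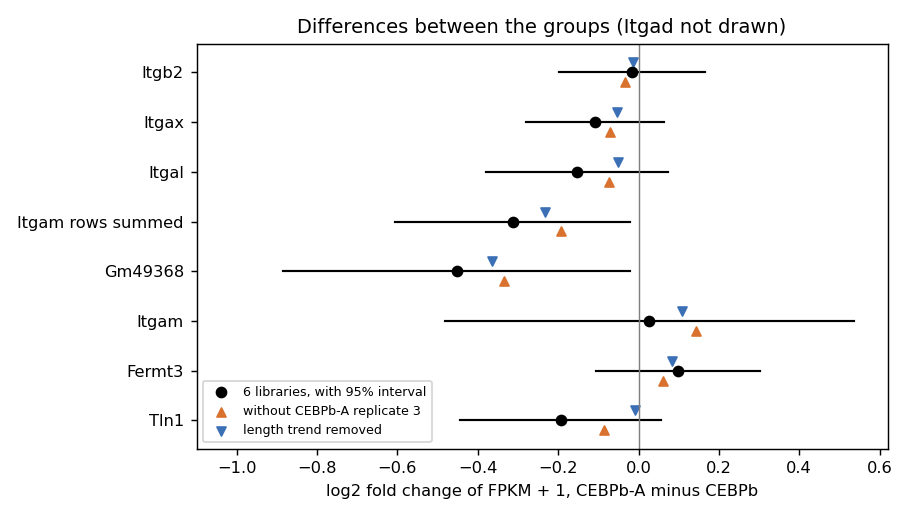
Log2 fold change of FPKM + 1 (CEBPb-A minus CEBPb) for the members other than Itgad, with 95% intervals from limma (black), without CEBPb-A replicate 3 (orange) and with the length trend removed (blue). The interval crosses 0 for all but Gm49368 and the summed Itgam rows, neither of which passed after adjustment, and Tln1 moves from −0.19 to −0.0098 with the length trend removed.

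No gene around the β2 integrins passed the test in either direction, in 6 lists of ligands, activators, inhibitors, signalling genes and other chains. Over all genes 5 of 9617 passed (0.052%), so 0 in a list is near that share. In the lists, rose and fell mean past the threshold, not the sign of the fold change. Of the ligands 5 of 15 genes were tested, 0 rose and 0 fell, and their median log2 fold change was 0.017. The complement protein C3, whose fragment iC3b is bound by Mac-1 and p150,95, stood at 499 ± 34.2 FPKM in CEBPb-A and 600 ± 23.7 in CEBPb (SD, n = 3 each; log2 fold change −0.27, limma adjusted p = 0.588). Icam1, the main ligand of LFA-1, stood at 41.9 ± 2.81 against 45.2 ± 0.655 FPKM (−0.11, adjusted p = 0.616). Icam2, another ligand of LFA-1, had 2.56 ± 0.219 against 1.98 ± 0.222 FPKM (0.26, adjusted p = 0.588), and the junctional protein F11r had a log2 fold change of 0.10.

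Of the genes listed for activation of integrins from inside the cell around Rap1, 18 of 22 were tested, 0 rose and 0 fell. Their median was −0.024. Rap1b, the GTPase itself, was present at 136 to 165 FPKM and its talin adaptor Apbb1ip at 34.3 to 39.5, both named after their values were seen. The smallest p-values belonged to Rapgef2, an activator of Rap1 (log2 fold change −0.36), the adaptor Fyb (−0.36), the kinase Stk4 (−0.18) and Rapgef1 (−0.13), with adjusted p of 0.588 to 0.599. Of the other adhesion scaffold genes 16 of 21 were tested, 0 rose and 0 fell, with a median of −0.038. Vinculin, Vcl, which binds talin, stood at 4.60 ± 0.450 against 5.86 ± 0.749 FPKM (−0.29, adjusted p = 0.588), the adaptor paxillin, Pxn, had −0.31, Nckap1l −0.20 and Csrp1 0.18.

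Of the inhibitors and recyclers of integrins 14 of 20 genes were tested, 0 rose and 0 fell, with a median of 0.027. The phosphatase gene Ptpn6 stood at 85.5 ± 2.27 against 74.3 ± 6.07 FPKM (0.20, adjusted p = 0.588). Filamin A, Flna, which competes with talin for β tails, had −0.26. It was lowest in CEBPb-A replicate 3, at 77.5 FPKM, and between 100 and 122 in the others. Ndfip1 had −0.11 and the sorting nexin Snx17, which returns β1 integrins to the surface, 0.13. Of the signalling genes downstream of the bound receptor 23 of 23 were tested, 0 rose and 0 fell, with a median of −6.7e-04. The adaptor Tyrobp, which links β2 integrins to Syk, stood at 1467 ± 199 against 1199 ± 126 FPKM (0.29, adjusted p = 0.588). Its highest library was CEBPb-A replicate 3, at 1694 FPKM. Syk stood at 66.2 ± 4.09 against 73.7 ± 1.66 FPKM (−0.16, adjusted p = 0.588). The kinase Ptk2 had −0.27 and the Rac activator Dock2 −0.20. The other integrin chains had 6 of 21 genes tested, 0 that rose and 0 that fell, and a median of −0.15. Itgb1 stood at 119 ± 7.71 against 136 ± 7.25 FPKM (−0.19, adjusted p = 0.588). Itga4 had −0.57 (limma adjusted p = 0.588), Itga6 −0.23 and Itga5 −0.11. The groups of Itga4 overlapped. Its lowest library was CEBPb-A replicate 3, at 4.11 FPKM, and the others lay between 8.43 and 12.5. All of these medians stand beside −0.013 over all genes. Neither that value nor the fold changes of the genes named in these lists are matched for transcript length. The length classes had medians from 0.10 to −0.18. The longest coding transcripts of the named genes run from 597 bases (Tyrobp) to 9767 (Itga4).

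**Figure D5:**
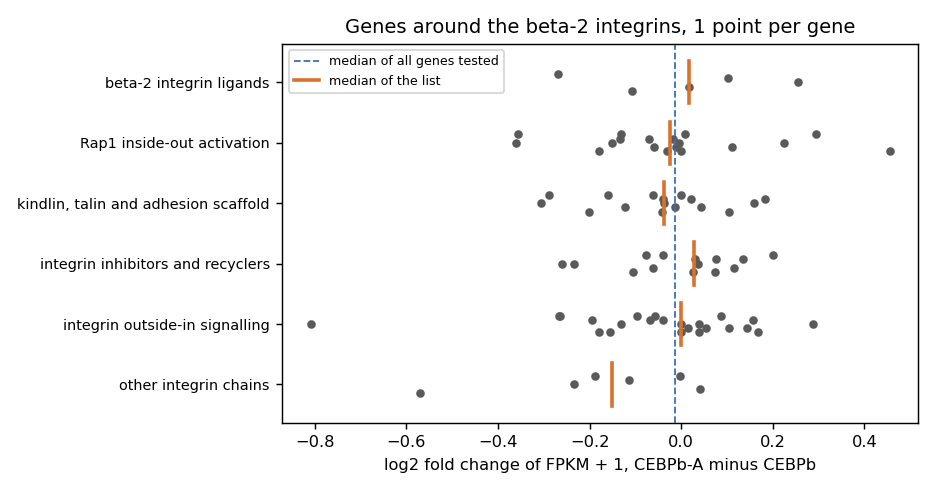
Log2 fold change of FPKM + 1 (CEBPb-A minus CEBPb) of each tested gene in 6 lists (1 point per gene), with the median of the list in orange and that of all genes tested, −0.013, as a dashed line. List medians run from −0.15 for the other integrin chains to 0.027 for inhibitors and recyclers. No point passed the test, which 5 of 9617 genes tested did (0.052%).

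The genes whose pattern over the 6 libraries was most like that of Itgb2, by the root mean square difference of centred log2(FPKM + 1), were Vps16, Ccdc86 and Pigt, at 0.011 to 0.016. For Itgax they were Apba1, Dcaf7 and Ece1, at 0.011 to 0.013. None of the 6 is a member of a list used here, and their levels were 2.78 to 19.6 FPKM, far under those of Itgb2 and Itgax.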

How the data were processed

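RNA sequencing covered 3 CEBPb and 3 CEBPb-A libraries, made with a stranded kit from 1 µg of total RNA, per the labels' protocols. The authors deposited FPKM, per the file headers, and the build was GRCm38, per the submitters' processing notes. Which aligner, FPKM program and annotation were used is not given in the sources used here. Multi-mapped reads and overlapping genes may thus shift single rows. FPKM keeps no depth (highest periodicity of low values 0.197 to 0.242, where 1 is whole-read steps), so no counting interval is given.

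Genes with a mean of at least 1 FPKM (9617 of 10539) were tested on log2(FPKM + 1), which understates changes of low genes, with limma 3.58.1 (R 4.3.3, intensity trend, no covariate, two-sided, Benjamini-Hochberg over all genes, threshold 0.05). The fitting was tested on simulated data. Ratios within a library were compared by exact permutation. Lengths and exons came from GENCODE M21 (GRCm38), in which 10516 identifiers matched without version. Within each list up to 4 genes by p, and 3 per gene by likeness, were named. Members and lists were chosen with earlier results of these data known. Alternatives were other pseudocounts (0.1, 0.5), filters, scalings and limma settings, a replicate block, a length correction and single libraries left out.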

Additional observations from a re-analysis of the deposited data

How the results depend on the processing

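No member passed in 17 alternatives (16 for Itgad), with the exception of Itgad without CEBPb replicate 1 (log2 fold change 1.78, limma adjusted p = 0.0182; 0.64 to 1.78 over single libraries left out), and no direction changed for Itgax, Itgal, Gm49368, Fermt3, Tln1 or the summed Itgam rows. With single libraries left out the log2 fold change ran from −0.041 to 0.027 for Itgb2 and from −0.22 to 0.23 for Itgam, and was 0.0038 for Itgb2 after median-of-ratios scaling. The share of Itgal (difference −0.29 percentage points) ran from −0.87 to 0.072 with single libraries left out, that of Itgax (1.22) from 0.44 to 2.41 and that of Itgam (−1.13) from −1.71 to −0.73. The last turned to 0.21, and that of Itgax became 0.18, when ENSMUSG00000030786 alone was taken as Itgam, an alternative chosen after seeing the data. The count of genes past the threshold, 5, became 0 with a mean of at least 5 FPKM, where fewer genes are tested, 2 after quantile normalization and 8 with the length trend removed, and ran from 1 to 9 with single libraries left out (3 without CEBPb replicate 1, 2 without CEBPb replicate 3, 1 without CEBPb-A replicate 1, 3 without CEBPb-A replicate 2 and 9 without CEBPb-A replicate 3). Quantile normalization gave log2 fold changes of −0.24 for Itgax, −0.16 for Itgb2, −0.23 for Itgal and 0.037 for Fermt3. Medians moved for ligands to −0.11 with a mean of at least 5 FPKM, for inhibitors to −0.0065 and for downstream signalling to −0.039 after quantile normalization, and for other integrin chains to −0.095 with the length trend removed. With single libraries left out they ran from −0.082 to 0.10 (ligands), from −0.0076 to 0.031 (inhibitors), from −0.045 to −0.0019 (downstream signalling), from −0.044 to −0.015 (Rap1) and from −0.063 to −0.0077 (scaffold). The cause of these moves was not tested.

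The labels tie libraries of equal replicate number by that number alone. Their deviations correlated at 0.0993, 0.247 and 0.259, not all above 0.1, so they were not treated as pairs. Each CEBPb-A library correlated best with its own number (other pairs −0.24 to 0.087), a hint from the data, and whether a batch was shared was not tested. Deviations were taken from the group mean, which ties these values together, so the low values of other pairs are no separate evidence. With the replicate block 1 gene passed and no member did; the paired values equal the unpaired ones, for example −0.45 for Gm49368 (limma adjusted p = 0.372). For the ratios the exact paired sign-flip test gave p = 0.25 to 0.75 (smallest possible 0.25).

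Precision is limited by 3 libraries per group and unknown depth. Levels of Itgam, Gm49368, the sum of these rows and Itgad also depend on how shared sequence was counted.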
